A study of Mus musculus with 6 samples.

Results

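The mitosis and chromosome segregation genes described here are 52 genes whose proteins drive a cell through mitosis, taken from a list of gene names. All 52 were found by symbol, each on 1 row, among the 55481 genes of the table, and all 52 were among the 13474 genes that reached 1 TPM in at least 2 libraries and were tested. The libraries came from mouse skin squamous cell carcinoma (SCC) induced by DMBA, a carcinogen, and TPA, a tumour promoter. The series text sets Itga6hi CD80pos cells, with high integrin alpha 6 and the co-stimulatory ligand CD80, which it names tumour stem-like, against Itga6low CD80neg cells, which it names differentiated cancer cells. Each group had 2 libraries, made from polyA RNA with a low-input kit. The labels name no strain, age or allele, no gate beyond these markers and no number of animals, and p-values therefore cover no more than the spread of these libraries, which may be technical. Itga6hi CD80neg cells, also in the labels, were not analysed here. Levels are TPM, a measure of transcript abundance scaled for transcript length and to 1 fixed total per library, so the depth is unknown. Values are given in the order Itga6hi CD80pos replicate 1 and replicate 2 against Itga6low CD80neg replicate 1 and replicate 2.

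In a dividing cell the kinase Cdk1, switched on by cyclins B and A, starts mitosis, and the kinases Plk1, Aurka and Aurkb build the spindle and correct its attachments. Kinetochores join each chromosome to spindle microtubules, and the spindle checkpoint holds back the ubiquitin ligase APC/C until all are attached. Then Cdc20 switches APC/C on, securin and cyclin B are destroyed, separase cuts cohesin, and the cell divides by cytokinesis. The genes of these proteins are transcribed mostly in late S, G2 and M phase, through the DREAM and MuvB complexes and the factors Mybl2 and Foxm1, which act on a promoter element called CHR (cell cycle genes homology region). In normal epidermis most dividing keratinocytes sit in the basal layer, where integrin alpha 6 is also found.

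The Itga6low CD80neg libraries differed from the others in far more than these genes. Haemoglobin genes took 70.9 and 50.4% of TPM in them and 0.0185 and 0.00621% in Itga6hi CD80pos, and keratin genes took 0.517 and 1.53% against 8.39 and 7.50%. Of all tested genes 57% were called higher and 9.48% lower on the deposited values, by the threshold given below. The marker counts that follow are to be read beside these shares. Markers of red blood cells were lower in Itga6hi CD80pos in 7 of 7 tested genes, with summed levels of 186 and 62.9 against 711100 and 504900 TPM. Fibroblast markers were lower in 11 of 12, with sums of 103 and 145 against 10290 and 7498 TPM. All 20 epithelial markers were higher, with sums of 71780 and 66660 against 3308 and 9674 TPM. Under median-of-ratios scaling 13 of them were higher, against 10.2% of all tested genes. T, NK and B cell markers summed to 0.436 and 0.418 against 3.49 and 8.75 TPM, with Cd3g, Cd4, Cd8a and Nkg7 at 0 in both Itga6hi CD80pos libraries. Macrophage and dendritic cell markers were lower in 1 of 3 tested genes and summed to 14.8 and 11.5 against 13.7 and 19.8 TPM, with Fcgr1 at 0 in both Itga6hi CD80pos libraries. Neutrophil markers were called in 0 of 3 and summed to 1071 and 742 against 586 and 2597 TPM, with Retnlg and Ly6g at 0 in both Itga6hi CD80pos libraries. Endothelial markers were higher in 2 of 3 tested genes, at 16.1 and 21.6 against 7.48 and 4.76 TPM in sum, with Cldn5 at 0 in both Itga6low CD80neg libraries, and muscle markers were lower in 4 of 5, at 6.37 and 11.5 against 107 and 49.6 TPM. Itga6 itself stood at 178 and 339 against 1.496 and 1.65 TPM, and Cd80 at 6.24 and 1.89 against 0.642 and 0.563 TPM. Because TPM share 1 total, values are given on the deposited scale, after median-of-ratios scaling, which sets each library by its typical gene, and after scaling to the 20 epithelial markers. Over all tested genes the median log2 fold change was 1.27, 0.24 and -1.57 on these 3 scales, and each change is set beside it.

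On deposited TPM, 51 of the 52 mitosis genes were higher in Itga6hi CD80pos and 0 were lower, at a Benjamini-Hochberg adjusted p under 0.05 by limma (adjusted p from 0.00235 to 0.0165). Among all tested genes 57% were called higher and 9.48% lower, so a higher call alone was common. The size of the difference was less common: 46 of the 52 lay in the top 10% of all log2 fold changes, 34 in the top 5% and 9 in the top 1%. Their median log2 fold change was 3.27. The ratio of mean TPM ran from 3.1 for Nusap1 to 34.4 for Plk1 among the called genes. Both Itga6hi CD80pos libraries lay above both Itga6low CD80neg libraries for 51 mitosis genes, and for 73.5% of all tested genes. Both figures include genes under 1 TPM in both Itga6low CD80neg libraries, for which the filter fixes this order in advance. The mitosis genes among them are named below. Fewer dividing cells in Itga6low CD80neg, less mitotic RNA per cell and more RNA of other cells cannot be told apart in these bulk libraries.

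**Figure D1:**
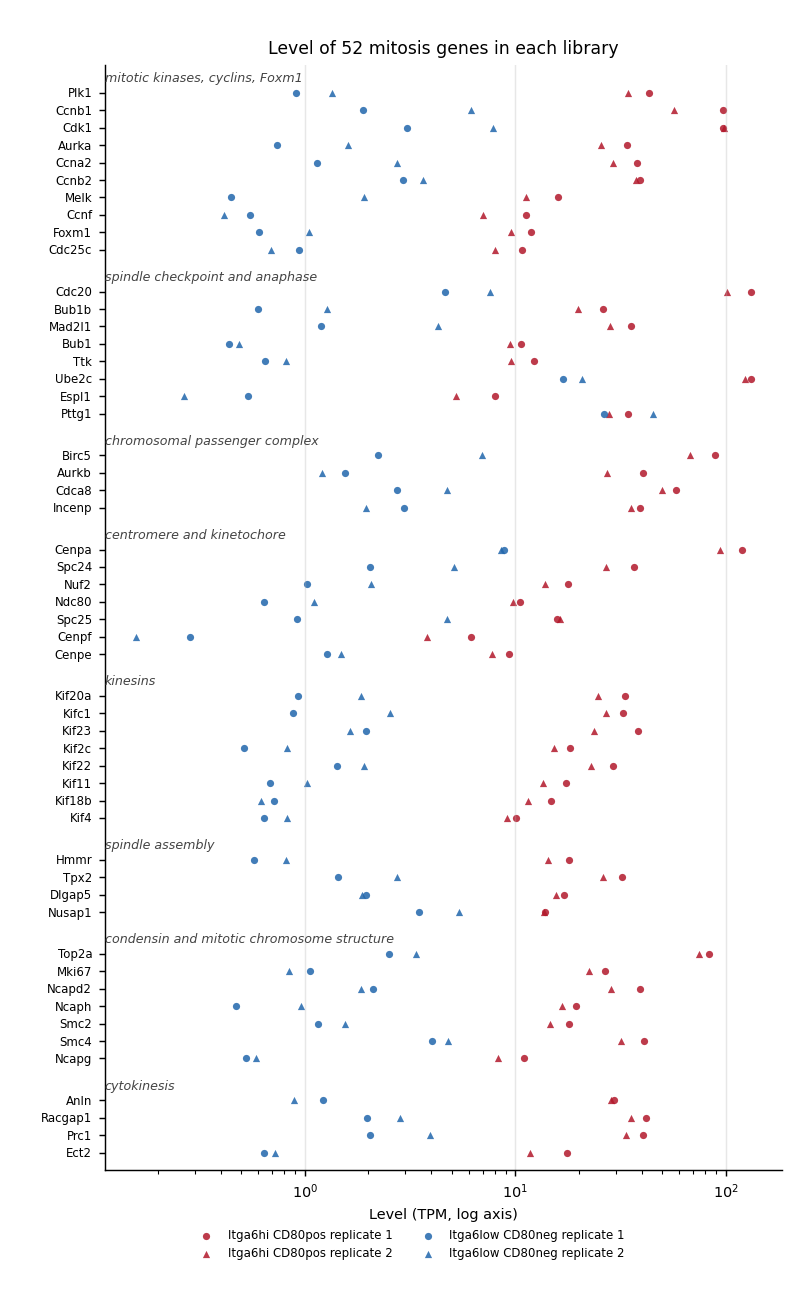
Level of each of the 52 mitosis genes in each library, in TPM on a log axis, grouped by role; circles and triangles are replicates 1 and 2, red is Itga6hi CD80pos and blue is Itga6low CD80neg. The red and blue points are apart for every gene except Pttg1, and among the rest Nusap1 has the smallest ratio of mean TPM, 3.1.

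The typical mitosis gene was well measured in 1 group and near the filter in the other. The median mitosis gene stood at 29.3 and 23.3 against 1.15 and 1.85 TPM. In both Itga6hi CD80pos libraries all 52 reached 1 TPM, while 29 and 37 did in the Itga6low CD80neg libraries. All 52 passed the filter on low values, and those under 1 TPM in both Itga6low CD80neg libraries passed it through the Itga6hi CD80pos libraries. For those genes the filter itself sets both Itga6hi CD80pos libraries above the others. They are Ccnf, Cdc25c, Bub1, Ttk, Espl1, Cenpf, Kif2c, Kif4, Kif18b, Hmmr, Ncapg, Ncaph and Ect2, and all are counted among the 51. Within a group the replicates differed in a shared direction. In Itga6hi CD80pos, 50 of 52 mitosis genes were higher in replicate 1, as were 59.3% of all tested genes, with a median log2 difference of 0.32 against 0.07 for all genes. In Itga6low CD80neg, 39 of 52 were higher in replicate 2, as were 63.5% of all tested genes, and the median log2 difference of replicate 1 from replicate 2 was -0.28 for the 52 and -0.26 for all genes, nearly the shift of the whole library.

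Removing an Itga6hi CD80pos library left that group with 1 library and took away calls among all genes, while the size of the difference stayed near 3.27. Without its replicate 1, limma called 0 of the 52 mitosis genes (lowest adjusted p = 0.0526) and 0% of all tested genes. There 50 of the 52 were higher at an unadjusted p under 0.05, as were 33% of all tested genes, and the median log2 fold change of the 52 was 3.15. Without its replicate 2, 22 of the 52 were called higher, against 2.62% of all tested genes, and the median was 3.44. Leaving out Itga6low CD80neg replicate 1 or replicate 2 gave 51 of 52 each time, against 55.2% and 61.1% of all tested genes.

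The promoters of these genes are shown because a shared sequence element is what such genes are known for. RefSeq on GRCm38.p6 gave a promoter, 250 bases before to 50 bases after the first listed start, for 42 of the 52 genes. The CHR element, TTTGAA on either strand, was in 32 of the 42 (76.2%), in 18.1% of all 27025 promoters and in 11.8% of the promoters of 9824 other tested genes. Within 50 bases of the start it was in 29 of the 42 (69%), against 5.11% of all promoters. The CCAAT box of the factor NF-Y, also counted on either strand, was in 32 of the 42 (76.2%) and in 37.9% of all promoters. The variant element TTCGAA was in 3 of the 42 (7.14%) and in 1.57% of all promoters. These are matches of letters and not measured sites.

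**Figure D2:**
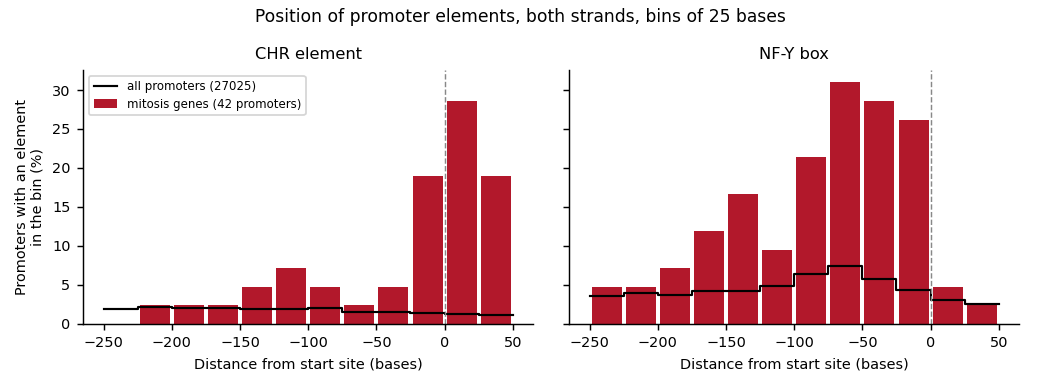
Share of promoters with a CHR element (left) or an NF-Y box (right) centred in each 25-base bin, by distance from the start site; red bars are the 42 promoters of mitosis genes and the black line is all 27025 promoters. CHR elements of the mitosis genes gather at the start site and just after it, and NF-Y boxes in the bins before it.

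The 6 promoters with a CHR element whose genes had the highest mean level in Itga6hi CD80pos are printed 5′ to 3′ on the gene's strand, 150 bases before to 30 bases after the start, to show how the elements are placed. Capitals mark CHR elements (TTTGAA or its reverse complement TTCAAA) and NF-Y boxes (CCAAT or its reverse complement ATTGG). They lie on GRCm38.p6 at chr2:164769779-164769958 for Ube2c (plus strand), chr4:118437314-118437493 for Cdc20 (minus), chr5:30666736-30666915 for Cenpa (plus), chr10:69352883-69353062 for Cdk1 (minus), chr11:99024160-99024339 for Top2a (minus) and chr4:124936888-124937067 for Cdca8 (minus).
Ube2c: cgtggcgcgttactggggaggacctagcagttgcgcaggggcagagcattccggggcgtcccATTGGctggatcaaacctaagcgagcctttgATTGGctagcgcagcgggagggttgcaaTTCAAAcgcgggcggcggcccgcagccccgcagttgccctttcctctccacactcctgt
Cdc20: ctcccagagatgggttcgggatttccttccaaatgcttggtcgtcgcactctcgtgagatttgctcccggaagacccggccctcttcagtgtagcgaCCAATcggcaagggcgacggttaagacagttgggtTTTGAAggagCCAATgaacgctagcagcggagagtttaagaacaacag
Cenpa: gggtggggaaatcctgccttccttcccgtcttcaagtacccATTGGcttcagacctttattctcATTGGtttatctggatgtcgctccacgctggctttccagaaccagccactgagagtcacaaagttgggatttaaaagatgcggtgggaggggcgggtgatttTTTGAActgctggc
Cdk1: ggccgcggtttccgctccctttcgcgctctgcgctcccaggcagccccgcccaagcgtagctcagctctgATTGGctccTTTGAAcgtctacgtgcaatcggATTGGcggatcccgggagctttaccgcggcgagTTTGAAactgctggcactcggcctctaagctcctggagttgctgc
Top2a: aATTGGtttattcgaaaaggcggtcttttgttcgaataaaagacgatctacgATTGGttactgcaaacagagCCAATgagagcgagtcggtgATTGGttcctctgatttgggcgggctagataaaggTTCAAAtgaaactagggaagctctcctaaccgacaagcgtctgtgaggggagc
Cdca8: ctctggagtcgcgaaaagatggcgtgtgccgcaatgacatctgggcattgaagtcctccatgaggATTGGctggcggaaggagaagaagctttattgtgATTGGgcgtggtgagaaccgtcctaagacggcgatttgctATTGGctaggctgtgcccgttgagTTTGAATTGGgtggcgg
Each holds 1 CHR element in this stretch except Cdk1, which holds 2, and each has at least 2 NF-Y boxes. In Cdca8 a CHR element and an NF-Y box share letters, and the start used for it lies 2394 bases inside the gene model of GENCODE M21. Of the 42 starts, 32 lay within 50 bases of the start of that gene model.

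The other 10 promoters had no TTTGAA in that window: Birc5, Ccnb1, Nuf2, Nusap1, Ncaph, Bub1, Cenpe, Melk, Mad2l1 and Pttg1. Printed in the same way are the 2 whose genes had the highest level in Itga6hi CD80pos, Birc5 at chr11:117849087-117849266 (plus strand) and Ccnb1 at chr13:100786457-100786636 (minus), and Pttg1 at chr11:43425952-43426131 (minus), which was added after its values were seen.
Birc5: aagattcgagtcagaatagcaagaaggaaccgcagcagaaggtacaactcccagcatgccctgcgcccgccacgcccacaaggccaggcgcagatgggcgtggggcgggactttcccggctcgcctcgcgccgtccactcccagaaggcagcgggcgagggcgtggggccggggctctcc
Ccnb1: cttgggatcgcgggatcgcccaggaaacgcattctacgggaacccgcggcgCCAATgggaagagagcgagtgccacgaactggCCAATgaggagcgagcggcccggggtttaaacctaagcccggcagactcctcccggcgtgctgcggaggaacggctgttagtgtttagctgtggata
Pttg1: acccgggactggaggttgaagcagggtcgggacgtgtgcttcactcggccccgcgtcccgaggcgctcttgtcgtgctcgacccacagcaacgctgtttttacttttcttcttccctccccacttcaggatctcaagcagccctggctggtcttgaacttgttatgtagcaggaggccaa
Ccnb1 has 2 NF-Y boxes, and Birc5 and Pttg1 have 0 in this stretch. The start used for Pttg1 lies 270 bases inside its gene model. The median log2 fold change was 3.34 for the 32 genes with a CHR element and 2.87 for the 10 without. Those without include Pttg1, Nusap1 and Cenpe, the 3 lowest of all 52, and also Ccnb1, at 4.05, and Birc5, at 3.95. No link between the element and the size of the change was tested.

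All 10 mitotic kinases, cyclins and regulators of mitotic entry were higher on deposited TPM and after median-of-ratios scaling. Of all tested genes 57% and 10.2% were higher on these scales, so a higher call on deposited TPM was common. None of the 10 had a log2 fold change under 0 after epithelial scaling. Plk1, the polo-like kinase of centrosome maturation and mitotic entry (chromosome 7, 122159439 to 122169873, plus strand, build GRCm38), had levels of 43.1 and 34.5 against 0.908 and 1.35 TPM. This is the widest ratio of the 52, with its log2 fold change at 4.22 ± 0.31 (SE, adjusted p = 0.00257). Cdk1, the kinase of mitotic entry (chromosome 10, 69335146 to 69352938, minus strand), stood at 96.7 and 97.8 against 3.05 and 7.83 TPM, with its log2 fold change at 4.04 ± 0.45 (SE, adjusted p = 0.00451). Its main partner cyclin B1, Ccnb1, stood at 97.1 and 56.8 against 1.90 and 6.18 TPM, and the ratio between its replicates was wider than that of Cdk1 or Plk1 in each group. The second B-type cyclin, Ccnb2, stood at 39.2 and 37.4 against 2.92 and 3.67 TPM, and cyclin A2, Ccna2, which acts from S phase to early mitosis, at 37.7 and 29.0 against 1.14 and 2.75 TPM. Aurka, the spindle pole kinase, stood at 34.1 and 25.4 against 0.735 and 1.61 TPM. The remaining 4 were at lower levels, between 7.01 and 16.04 TPM in Itga6hi CD80pos: the kinase Melk, the cyclin F gene Ccnf, the transcription factor Foxm1 and the Cdk1-activating phosphatase Cdc25c. Foxm1, which acts on many of the other genes here, stood at 11.9 and 9.57 against 0.609 and 1.04 TPM, with its log2 fold change at 2.69 ± 0.30 (SE, adjusted p = 0.00447). Across the 10 the median log2 fold change was 3.39 on deposited TPM and 0.58 after epithelial scaling.

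Among the 8 spindle checkpoint and anaphase genes, 7 were higher on deposited TPM and after median-of-ratios scaling. The shares of all tested genes were 57% and 10.2%. After epithelial scaling 2 of the 8, Ube2c and Pttg1, had log2 fold changes under 0. Cdc20, the activator of APC/C, stood at 131 and 102 against 4.64 and 7.60 TPM, with its log2 fold change at 4.07 ± 0.37 (SE, adjusted p = 0.00347). The checkpoint genes ran from Bub1b, the BubR1 gene, at 26.1 and 19.9 against 0.601 and 1.28 TPM, and Mad2l1, at 35.5 and 28.2 against 1.197 and 4.32 TPM, to the kinase genes Bub1, at 10.7 and 9.43 against 0.437 and 0.486 TPM, and Ttk, at 12.2 and 9.56 against 0.650 and 0.813 TPM. Ube2c, the ubiquitin-conjugating enzyme of APC/C (chromosome 2, 164769898 to 164778822, plus strand), had the highest mean level of the 52 in Itga6hi CD80pos, at 132 and 124 TPM. It was also well above the other called genes in Itga6low CD80neg, at 16.8 and 20.7 TPM, so its log2 fold change was 2.71 ± 0.34 (SE, adjusted p = 0.00519). After epithelial scaling it was -0.67 (adjusted p = 0.158).

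Pttg1 and Espl1, the genes of securin and of separase, the protease that securin holds inactive until anaphase, differed in their calls, although the difference between them was not tested. Espl1 stood at 8.03 and 5.21 against 0.535 and 0.267 TPM, with its log2 fold change at 2.43 ± 0.32 (SE, adjusted p = 0.00560). Pttg1 (chromosome 11, 43420250 to 43426251, minus strand) stood at 34.2 and 27.8 against 26.5 and 45.3 TPM. Its groups overlap, it is the only one of the 52 for which they do, and its log2 fold change on deposited TPM was -0.16 ± 0.39 (SE, adjusted p = 0.727), with 16.3% of all tested genes below it. After median-of-ratios scaling Pttg1 was lower in Itga6hi CD80pos, at -1.40 ± 0.27 (SE, adjusted p = 0.0277), where 11.9% of all tested genes were lower. It was also lower after quantile normalization (-1.52, adjusted p = 0.0207) and without haemoglobin genes in the total (-1.53, adjusted p = 0.0208). With Itga6hi CD80pos replicate 1 removed the value after median-of-ratios scaling was -1.51 (adjusted p = 0.234), and with replicate 2 removed it was -1.28 (adjusted p = 0.256), in fits where 0% of all tested genes were called. Pttg1 shares 0.606% of its 31-base stretches with other genes of GENCODE M21, which may not be the annotation behind the deposited values. The part that the mix of cells had in the Pttg1 result was not tested.

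All 4 genes of the chromosomal passenger complex, which corrects kinetochore attachments and then guides cytokinesis, were higher on deposited TPM and after median-of-ratios scaling. Of all tested genes 57% and 10.2% were. None of the 4 had a log2 fold change under 0 after epithelial scaling, and none was called there. The kinase gene Aurkb stood at 40.5 and 27.4 against 1.55 and 1.21 TPM, the scaffold gene Incenp at 39.2 and 35.7 against 2.95 and 1.95 TPM. Birc5, the survivin gene, stood at 88.5 and 67.8 against 2.23 and 6.98 TPM, and Cdca8, the borealin gene, at 58.3 and 49.6 against 2.75 and 4.77 TPM. The median log2 fold change of the 4 was 3.71, the highest median among the 8 roles. Birc5 was the highest and Aurkb the lowest of the 4 in both groups: mean TPM of Birc5 was 2.30 times that of Aurkb in Itga6hi CD80pos and 3.34 times in Itga6low CD80neg.

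The 7 centromere and kinetochore genes were all higher on deposited TPM, against 57% of all tested genes. After median-of-ratios scaling 5 of the 7 were higher, against 10.2% of all tested genes. After epithelial scaling 4 of the 7 had log2 fold changes under 0 (Cenpe, Spc25, Spc24 and Nuf2). Cenpa, the histone H3 variant that marks centromeres, stood at 120 and 93.6 against 8.83 and 8.59 TPM, with its log2 fold change at 3.46 ± 0.33 (SE, adjusted p = 0.00354). The 4 subunits of the Ndc80 complex, the main microtubule coupler of the kinetochore, were all higher on deposited TPM. Ndc80 stood at 10.5 and 9.72 against 0.643 and 1.10 TPM and its partner Nuf2 at 17.8 and 13.9 against 1.03 and 2.06 TPM. Spc24 stood at 36.5 and 27.0 against 2.03 and 5.09 TPM and Spc25 at 15.8 and 16.4 against 0.917 and 4.76 TPM. Spc25 had the most uneven Itga6low CD80neg pair and the weakest call of the 51 (log2 fold change 2.36 ± 0.56 (SE), adjusted p = 0.0165), and it was not called after median-of-ratios scaling (1.35, adjusted p = 0.141). Cenpe, the kinetochore kinesin, stood at 9.34 and 7.77 against 1.28 and 1.49 TPM and was not called after that scaling either (1.04, adjusted p = 0.0601). Cenpf, a large kinetochore protein of late G2, was the lowest of the 52 in both groups, at 6.18 and 3.83 against 0.285 and 0.157 TPM.

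All 8 kinesin genes were higher on deposited TPM and after median-of-ratios scaling, against 57% and 10.2% of all tested genes. Each of the 8 kept a log2 fold change above 0 after epithelial scaling, from 0.18 to 0.94, without a call. Kif20a, a motor of the central spindle, stood at 33.2 and 24.6 against 0.924 and 1.85 TPM, with its log2 fold change at 3.66 ± 0.35 (SE, adjusted p = 0.00367). Kif23, the motor of centralspindlin, stood at 38.4 and 23.6 against 1.95 and 1.63 TPM. Kif11, which pushes spindle poles apart, stood at 17.4 and 13.5 against 0.684 and 1.03 TPM. Kif2c, which depolymerizes microtubules at faulty attachments, stood at 18.3 and 15.3 against 0.513 and 0.828 TPM. Kif22, at 29.2 and 23.0 against 1.43 and 1.91 TPM, and Kif4, at 10.1 and 9.12 against 0.641 and 0.8203 TPM, are motors that bind chromosome arms, and Kif18b, at 14.8 and 11.5 against 0.714 and 0.620 TPM, controls astral microtubules. The 8 motors thus lay close together, with log2 fold changes from 2.61 to 3.66. Kifc1, which focuses spindle poles, stood at 32.4 and 27.0 against 0.881 and 2.55 TPM, but 62.6% of its 31-base stretches are also in other genes, Kifc5b above all, so its level is uncertain. Kifc5b itself stood at 6.80 and 5.33 against 0.214 and 0.404 TPM, with both Itga6hi CD80pos libraries above the others.

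The 4 spindle assembly genes were all higher on deposited TPM and 3 of them after median-of-ratios scaling, against 57% and 10.2% of all tested genes. Dlgap5 and Nusap1 had log2 fold changes under 0 after epithelial scaling. Tpx2, which activates Aurka on the spindle, stood at 32.1 and 26.2 against 1.43 and 2.73 TPM, and Hmmr, a spindle pole protein and hyaluronan receptor, at 17.98 and 14.3 against 0.573 and 0.815 TPM. Dlgap5, a stabilizer of kinetochore fibres, stood at 17.0 and 15.7 against 1.96 and 1.87 TPM. Nusap1, which bundles microtubules near chromosomes (chromosome 2, 119618298 to 119651244, plus strand), stood at 13.8 and 13.7 against 3.49 and 5.39 TPM. It did not overlap between groups, and its log2 fold change, 1.46 ± 0.32 (SE) with adjusted p = 0.0133, was the smallest among the 51 called genes and close to the median of all genes. After median-of-ratios scaling it was 0.35 (adjusted p = 0.381), and after epithelial scaling it was lower, at -1.57 (adjusted p = 0.0306).

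All 7 genes of condensin and mitotic chromosome structure were higher on deposited TPM and after median-of-ratios scaling. The shares of all tested genes were 57% and 10.2%. Of the 7 genes 1, Smc4, had a log2 fold change under 0 after epithelial scaling. Top2a, the topoisomerase that untangles sister chromatids (chromosome 11, 98992943 to 99024189, minus strand), stood at 83.7 and 74.98 against 2.50 and 3.37 TPM. Its log2 fold change, 4.36 ± 0.31 (SE) with adjusted p = 0.00235, was the largest of the 52. Mki67, the gene of the Ki-67 protein that coats mitotic chromosomes and is used as a marker of cycling cells, stood at 26.7 and 22.5 against 1.06 and 0.840 TPM. Condensin I, the ring that compacts chromosomes, has 5 subunits here. Its core ATPase genes stood at 41.1 and 31.7 against 4.03 and 4.80 TPM for Smc4 and at 17.9 and 14.7 against 1.16 and 1.55 TPM for Smc2, which serve condensin II too. Its own subunits stood at 39.3 and 28.4 against 2.10 and 1.85 TPM for Ncapd2, at 19.4 and 16.6 against 0.471 and 0.965 TPM for Ncaph, and at 11.05 and 8.26 against 0.527 and 0.586 TPM for Ncapg. Smc4 was the highest and Ncapg the lowest of the 5 in both groups, with mean TPM apart by 3.77 times in Itga6hi CD80pos and 7.93 times in Itga6low CD80neg.

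All 4 cytokinesis genes were higher on deposited TPM and after median-of-ratios scaling, against 57% and 10.2% of all tested genes. The 4 had log2 fold changes above 0 and no call after epithelial scaling. Anln, the anillin gene of the contractile ring, stood at 29.3 and 28.4 against 1.22 and 0.888 TPM, with its log2 fold change at 3.87 ± 0.28 (SE, adjusted p = 0.00257). Prc1, which bundles the central spindle, stood at 40.3 and 33.7 against 2.04 and 3.94 TPM, and Ect2, the exchange factor that switches on RhoA, at 17.6 and 11.7 against 0.644 and 0.725 TPM. Racgap1, the partner of Kif23 in centralspindlin, stood at 41.8 and 35.6 against 1.98 and 2.84 TPM. Mean TPM of Racgap1 was 1.25 times that of Kif23 in Itga6hi CD80pos and 1.34 times in Itga6low CD80neg, so the pair stood at similar levels in both groups.

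Besides Kifc1, at least 10% of the 31-base stretches were shared with other genes in 5 of the 52. The shares were 45.9% for Ccnb1, 27.4% for Cdc20, 17% for Ndc80, 15% for Plk1 and 11% for Racgap1, and at most 8.67% for each of the rest. The partners of Ccnb1, Cdc20 and Plk1 with the most shared stretches (Ccnb1-ps, Gm7856 and Plk-ps1) stood at 0.383 TPM or less in every library, and that of Ndc80, 2700099C18Rik, at 4.12 and 2.76 against 0.326 and 0.535 TPM.

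**Figure D3:**
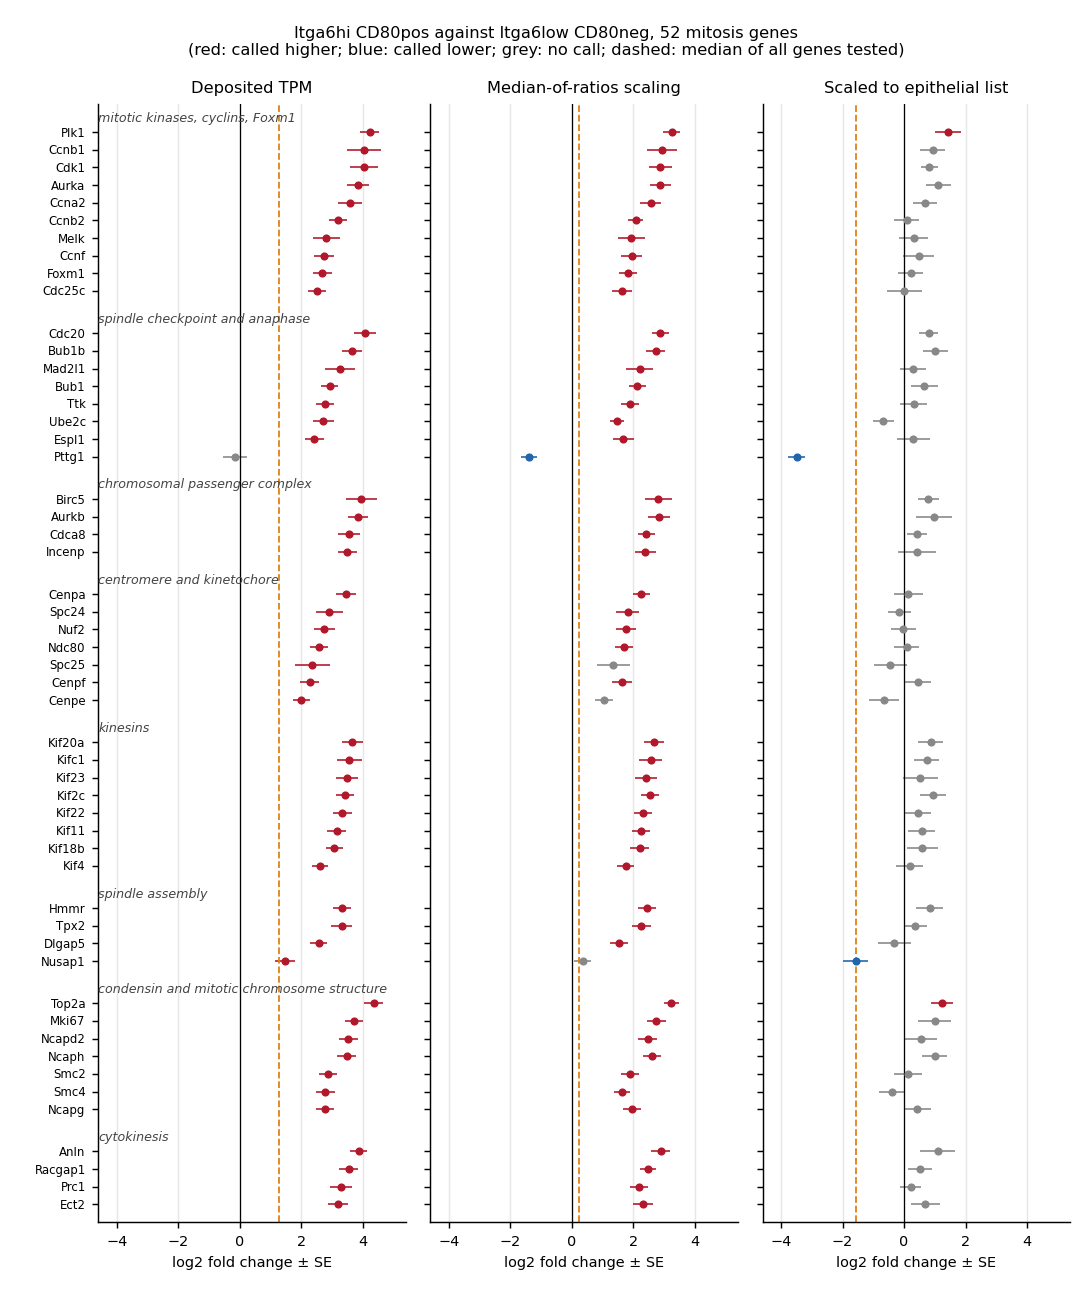
Log2 fold change with its SE of each of the 52 mitosis genes on deposited TPM, after median-of-ratios scaling and after scaling to the epithelial markers (limma, 2 libraries a group; positive is higher in Itga6hi CD80pos); red and blue are calls, grey is no call and the dashed line is the median of all tested genes. The genes move left together from panel to panel, and Pttg1 stands apart in each.

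After median-of-ratios scaling 48 of the 52 were higher and 1, Pttg1, was lower, where 10.2% of all tested genes were higher. Their median log2 fold change was 2.24. The 3 without a call there were Spc25, Cenpe and Nusap1. Across 5 scalings (deposited, median-of-ratios, quantile, without haemoglobin genes in the total, and without haemoglobin, mitochondrial, ribosomal protein and keratin genes in it), 42 of the 52 were higher under all, as were 6.57% of the 13280 genes that all 5 hold. With either Itga6hi CD80pos library removed, median-of-ratios scaling gave 0 calls among the 52 and 0% among all tested genes, so these counts do not set the mitosis genes apart. The median log2 fold change of the 52 was then 2.09 without replicate 1 and 2.38 without replicate 2.

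Set against the epithelial markers, few of the 52 were called. After that scaling 2 of the 52 were higher, Plk1 (1.43 ± 0.42 (SE), adjusted p = 0.0418) and Top2a (1.23 ± 0.36 (SE), adjusted p = 0.0437), where 0.853% of all tested genes were higher. Lower were 2, Pttg1 (-3.49 ± 0.27 (SE), adjusted p = 0.00680) and Nusap1 (-1.57), where 54.9% of all tested genes were lower. The median log2 fold change of the 52 was 0.45, with 43 above 0 and 9 under it, against -1.57 for all tested genes. With each library removed in turn, the log2 fold change of Pttg1 ran from -3.68 to -3.30 and that of Nusap1 from -1.82 to -1.33. The number of higher calls depended on single libraries. With Itga6hi CD80pos replicate 1 or replicate 2 removed, 0 of the 52 were higher, against 0.178% and 0.364% of all tested genes. With Itga6low CD80neg replicate 1 removed 23 were higher, against 3.52% of all tested genes, and with its replicate 2 removed 13 were, against 2.13%.

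The sum over the 52 genes shows the same dependence on the scale. It was 1873 and 1519 against 122 and 191 TPM, that is 0.187 and 0.152% of all TPM against 0.0122 and 0.0191%, and the ratio of the group means was 10.8. With haemoglobin genes left out of the total the shares were 0.187 and 0.152% against 0.0420 and 0.0384%, a ratio of 4.22. Divided by the geometric mean of the epithelial markers, the sums were 3.16 and 2.73 against 3.48 and 2.43, and the groups overlapped. With 2 libraries against 2 the smallest p of an exact permutation test is 0.333, and these sums were not tested. The epithelial markers moved with the mitosis genes, and the part that the mix of cells had in the result was not tested.

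**Figure D4:**
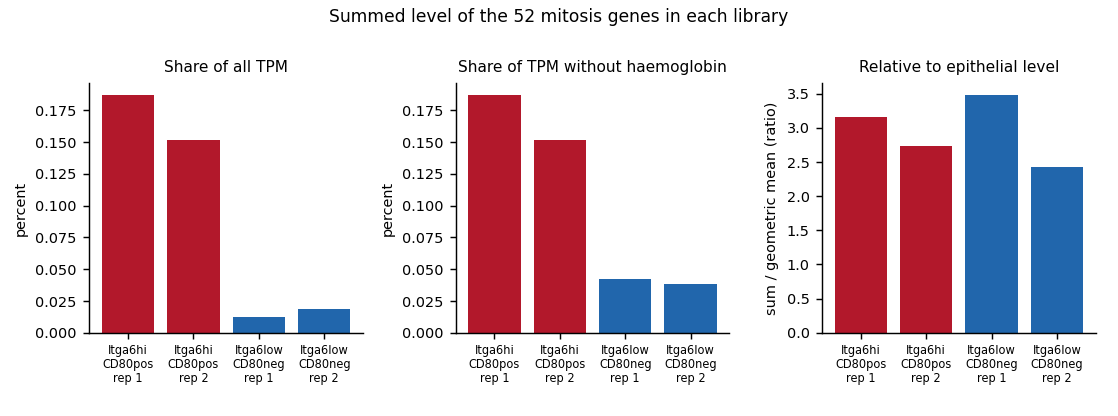
Summed level of the 52 mitosis genes in each library as a percent of all TPM (left), as a percent of TPM without haemoglobin genes (middle) and divided by the geometric mean of TPM + 1 over 20 epithelial markers (right); red is Itga6hi CD80pos, blue is Itga6low CD80neg, and each bar is 1 library. The red bars stand above the blue ones in the first 2 panels, and in the third the bars of the groups overlap.

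Other mitosis genes, 72 kinetochore, centrosome, spindle and APC/C-related genes that are not among the 52, were all higher on deposited TPM. Of all tested genes 57% were. The median log2 fold change of the 72 was 2.34, against 1.27 for all tested genes. After median-of-ratios scaling 43 of 72 were higher, against 10.2% of all tested genes. After epithelial scaling 0 were higher and 3 lower, against 0.853% and 54.9% of all tested genes, with log2 fold changes of 36 genes under 0. The 4 with the largest fold changes were Knstrn, a kinetochore and spindle adaptor, Cdca3, a factor of mitotic entry, Tacc3, a spindle protein bound by Aurka, and the mitotic kinase Pbk. Knstrn stood at 50.5 and 42.4 against 1.70 and 1.84 TPM (log2 fold change 4.09 ± 0.29 (SE), adjusted p = 0.00240), and the other 3 had log2 fold changes of 3.76, 3.72 and 3.68. The 3 lower after epithelial scaling, chosen after their values were seen, were Ncaph2 of condensin II (-1.32), the kinetochore gene Zwint (-1.31) and Ube2s, the second ubiquitin-conjugating enzyme of APC/C (-1.15). Ube2s stood at 241 and 254 against 35.5 and 72.4 TPM, with its log2 fold change at 2.27 (adjusted p = 0.0127) on deposited TPM.

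A list of APC/C subunits, the APC/C activator Fzr1, cohesin with its loaders and release factors, and the checkpoint genes Bub3 and Mad1l1 holds proteins that mitosis needs but whose genes are also transcribed in resting cells. Its median log2 fold change of 1.54 on deposited TPM was close to the 1.27 of all genes. On that scale 26 of 27 were higher, against 57% of all tested genes, and the remaining one, Anapc13 (chosen after its values were seen), stood at 1.15 (adjusted p = 0.0507). After median-of-ratios scaling 2 of 27 were higher, against 10.2% of all tested genes: Mad1l1, which is no subunit of APC/C or cohesin and had the largest fold change of the list (3.84 on deposited TPM), and the cohesin subunit gene Rad21. There 5 had log2 fold changes under 0. After epithelial scaling 0 were higher and 16 of 27 lower, a share near the 54.9% of all tested genes. Rad21 stood at 52.5 and 49.8 against 8.05 and 7.26 TPM, and Mad1l1 at 65.2 and 119 against 5.91 and 4.56 TPM. Pds5a, a regulator of cohesin, and Fzr1, the APC/C activator of late mitosis and G1, had log2 fold changes of 2.27 and 2.21 on deposited TPM and no call after median-of-ratios scaling. Set side by side, Fzr1 stood at 38.2 and 35.6 against 7.24 and 7.19 TPM, where Cdc20, the other activator, stood at 131 and 102 against 4.64 and 7.60 TPM.

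The DREAM, MuvB and E2F factors that act on the promoters of these genes had calls in both directions. On deposited TPM 13 of 18 tested were higher and 1 lower, against 57% and 9.48% of all tested genes. After median-of-ratios scaling 6 were higher and 1 lower, against 10.2% and 11.9%, and after epithelial scaling 0 and 7, against 0.853% and 54.9%. Mybl2, the B-Myb gene that joins MuvB in S phase, stood at 16.2 and 11.5 against 0.824 and 1.09 TPM (log2 fold change 2.91 ± 0.31 (SE), adjusted p = 0.00421). The repressors of late S phase E2f8, at 14.2 and 11.2 against 0.456 and 0.639 TPM, and E2f7, at 13.8 and 11.7 against 0.710 and 0.490 TPM, had log2 fold changes of 3.14 and 3.10. Tfdp1, the usual dimer partner of E2F proteins, stood at 128 and 101 against 9.67 and 21.7 TPM and was higher on deposited TPM and after median-of-ratios scaling, with -0.47 and no call after epithelial scaling. Its relative Tfdp2, chosen after its values were seen, was lower on all 3 scales, at 8.503 and 6.06 against 17.6 and 31.8 TPM (log2 fold change -1.59, adjusted p = 0.0194 on deposited TPM).

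DNA replication genes, of the phase before mitosis, were higher in 31 of 31 on deposited TPM, against 57% of all tested genes. Their median log2 fold change was 2.91, against 1.27 for all tested genes. After median-of-ratios scaling 23 of 31 were higher, where 10.2% of all tested genes were. After epithelial scaling 1 was higher and 2 lower, against 0.853% and 54.9% of all tested genes, with 16 of 31 log2 fold changes under 0. Tk1, a thymidine kinase, stood at 97.9 and 72.0 against 2.95 and 3.81 TPM (log2 fold change 4.29 ± 0.33 (SE), adjusted p = 0.00280) and the helicase subunit Mcm5 at 90.9 and 66.2 against 1.81 and 5.52 TPM (log2 fold change 4.20). Uhrf1, which carries DNA methylation to the new strand, and the flap endonuclease Fen1 had log2 fold changes of 3.70 and 3.53. Mcm5 was the 1 gene higher after epithelial scaling (1.09, adjusted p = 0.0486). The 2 lower there, chosen after their values were seen, were the polymerase clamp Pcna (-1.10) and Gins4 of the replicative helicase (-1.41).

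**Figure D5:**
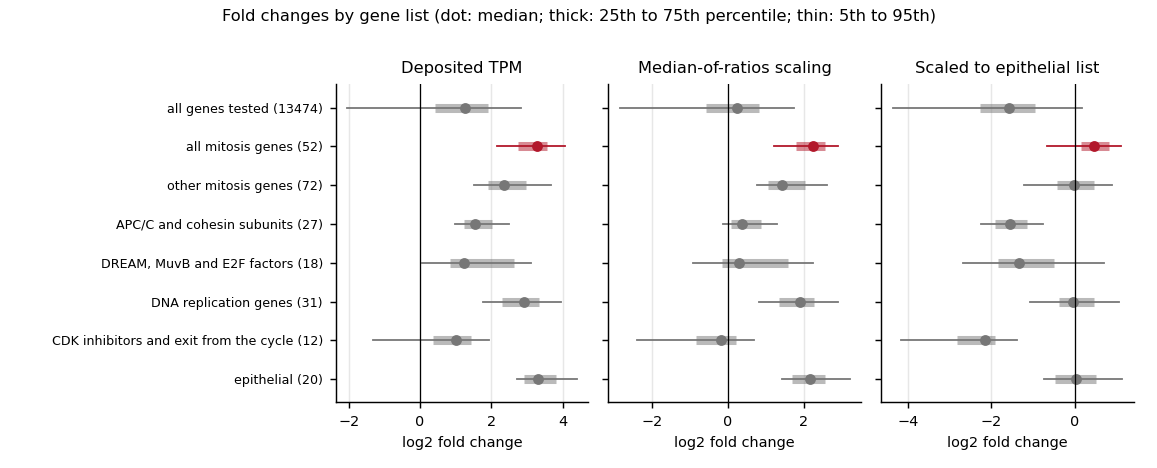
Log2 fold changes of all tested genes, of the 52 mitosis genes (red) and of 6 other lists on the 3 scales; dots are medians, thick bars run from the 25th to the 75th percentile and thin bars from the 5th to the 95th. The 52 mitosis genes and the epithelial markers have the 2 highest medians on each scale, and APC/C and cohesin subunits lie near all genes. The epithelial markers define the third scale, so their median there, 0.02, follows from the scaling.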

How the data were processed

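RNA of 2 Itga6hi CD80pos and 2 Itga6low CD80neg libraries was compared. The deposited values are TPM per gene, made by the authors with kallisto 0.44.0 on build mm10, per the submitters' processing notes. The annotation and any filter are not given in the sources used here. TPM keep no depth, so no counting interval is given. Genes reaching 1 TPM in 2 or more libraries were tested as log2(TPM + 1) with limma 3.58.1 in R 4.3.3 (eBayes with a trend, two-sided, Benjamini-Hochberg adjusted p under 0.05 over all 13474 tested genes, no fold threshold), on 2 residual and 3.33 prior degrees of freedom. Fold changes are on that log2(TPM + 1) scale, which understates the change of low genes, while ratios are of mean TPM. The script was tested on simulated data.

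Median-of-ratios scaling used the 16860 genes above 0 in all 4 libraries. Epithelial scaling used the geometric mean of TPM + 1 over 20 markers. The other alternatives were pseudocounts of 0.1 and 5, no filter, a mean of at least 5 TPM, quantile normalization, totals without haemoglobin genes or without haemoglobin, mitochondrial, ribosomal protein and keratin genes, a replicate block, and each library left out. Leaving out a library under median-of-ratios and epithelial scaling was added after seeing the data. The mitosis genes and all lists were chosen with earlier results of these data known. Any mitosis gene could be named, with up to 4 called genes per other list by absolute fold change, and the marker with the highest TPM of each cell type. Lin54 and Ahsp matched no row. Coordinates and shared 31-base stretches are from GENCODE M21 on GRCm38, and promoters from RefSeq on GRCm38.p6.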

Additional observations from a re-analysis of the deposited data

How the results depend on the processing

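Depth is unknown, 2 libraries a group allow little power, and whether the replicates came from separate animals is not stated. Pseudocounts of 0.1 and 5 gave the 52 mitosis genes a median log2 fold change of 3.93 and 2.17 and left all 52 on the same side of the threshold. Median-of-ratios scaling gave 2.24, quantile normalization 2.39, leaving haemoglobin genes out of the total 2.32, leaving out haemoglobin, mitochondrial, ribosomal protein and keratin genes 2.63, and epithelial scaling 0.45. Each of the first 4 of these scalings called 1 mitosis gene lower, Pttg1, and epithelial scaling called 2 lower and 2 higher. Leaving out each library gave 0 to 51 mitosis genes higher on deposited TPM, 0 to 46 after median-of-ratios scaling and 0 to 23 after epithelial scaling, where 1 to 6 were lower. The lowest counts came without an Itga6hi CD80pos library, where few or none of all tested genes were called either, and the median log2 fold change of the 52 was 3.15 and 3.44 on deposited TPM. The replicate numbers are shared between the groups, but the labels do not say what they mark, and deviations of same-numbered libraries correlated at 0.11. With the replicate block 51 mitosis genes were higher, and over all genes 8044 higher and 1452 lower.

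Higher calls among all tested genes were 6117 of 8821 at a mean of at least 5 TPM and 4564 of 30663 with no filter. They were 1373, 1611 and 115 of 13474 after median-of-ratios, quantile and epithelial scaling. Without haemoglobin genes they were 1039 of 13468, and without haemoglobin, mitochondrial, ribosomal protein and keratin genes 1850 of 13280. With a library left out they were 0 to 8227 of 13474. Of the 72 other mitosis genes, 39 were called higher at a mean of at least 5 TPM, where fewer genes were tested. How many of the 72 passed that filter is not given, so 39 is no share of 72. The counts were 43 after median-of-ratios scaling, 33 without haemoglobin genes, 46 without haemoglobin, mitochondrial, ribosomal protein and keratin genes, 0 after epithelial scaling and 0 to 70 with a library left out. Of APC/C and cohesin subunits, the counts were 16 with no filter, 2 after median-of-ratios scaling, 2 after quantile normalization, 1 without haemoglobin genes, 3 without haemoglobin, mitochondrial, ribosomal protein and keratin genes, 0 after epithelial scaling and 0 to 27 with a library left out. Of DREAM, MuvB and E2F factors they were 6 after median-of-ratios scaling, 6 after quantile normalization, 5 without haemoglobin genes, 6 without haemoglobin, mitochondrial, ribosomal protein and keratin genes, 0 after epithelial scaling and 0 to 13 with a library left out. DNA replication genes gave 18 without haemoglobin genes, 1 after epithelial scaling and 0 to 31 with a library left out.

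The sign of the log2 fold change turned after epithelial scaling for Ube2c (-0.67), Cenpe (-0.65), Nuf2 (-0.02), Spc24 (-0.15), Spc25 (-0.45), Nusap1 (-1.57), Dlgap5 (-0.32) and Smc4 (-0.39) among the 52 mitosis genes. It turned there too for Ncaph2 (-1.32), Zwint (-1.31), Ube2s (-1.15), Rad21 (-0.68), Pds5a (-0.93), Fzr1 (-1.04), Anapc13 (-2.26), Tfdp1 (-0.47), Pcna (-1.10), Gins4 (-1.41), Ccng1 (-0.85), Cdkn2c (-2.01), Btg1 (-3.11), Cd14 (-2.56), Egfl7 (-0.23) and Cd80 (-0.53). After median-of-ratios scaling it turned for Anapc13 (-0.11), Btg1 (-0.98), Cd14 (-0.72) and Cdkn2c (-0.04), after quantile normalization for Anapc13 (-0.21), Btg1 (-1.07), Cd14 (-0.66) and Cdkn2c (-0.10), and without haemoglobin genes for Anapc13 (-0.23), Btg1 (-1.10), Cd14 (-0.87) and Cdkn2c (-0.16). Without haemoglobin, mitochondrial, ribosomal protein and keratin genes it turned for Btg1 (-0.86) and Cd14 (-0.66). With a library left out, Pttg1 ran from -0.54 (without Itga6low CD80neg replicate 1) to 0.21 (without its replicate 2), and the neutrophil marker S100a9 from -1.67 to 0.46 in the same way.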

Other observations

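Inhibitors of cyclin-dependent kinases and genes of exit from the cycle are the counterpart of the mitosis genes, and most of them had no call on deposited TPM. Of 12 tested, 2 were higher and 1 lower there, against 57% and 9.48% of all tested genes. After median-of-ratios scaling 0 were higher and 2 lower, against 10.2% and 11.9% of all tested genes, and after epithelial scaling 0 and 12, against 0.853% and 54.9%. Cdkn1c, the p57 gene, stood at 0.709 and 0.902 TPM in Itga6hi CD80pos and at 15.6 and 17.1 TPM in Itga6low CD80neg. It was lower on all 3 scales, with with its log2 fold change at -3.27 ± 0.28 (SE, adjusted p = 0.00322) on deposited TPM and -4.12 (adjusted p = 0.00359) after median-of-ratios scaling. Fibroblast markers were lower in the same direction, in 11 of 12 genes, and their part in this result was not tested. Ccng1, the cyclin G1 gene, stood at 74.3 and 65.7 against 7.54 and 18.3 TPM and was higher on deposited TPM (2.46, adjusted p = 0.0101), with no call after median-of-ratios scaling (1.25) and a lower call after epithelial scaling (-0.85). Cdkn2c, the p18 gene, stood at 16.5 and 13.6 against 6.13 and 6.66 TPM, with a log2 fold change of 1.11 (adjusted p = 0.0220) on deposited TPM and -0.04 after median-of-ratios scaling. Btg1, an antiproliferative gene chosen after its values were seen, stood at 62.8 and 66.8 against 45.1 and 62.9 TPM and was the second gene lower after median-of-ratios scaling (-0.98, adjusted p = 0.0478).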
